A study of Mus musculus with 4 samples.

Results

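Monocytes and monocyte-derived cells were 241 of the 24939 cells kept from 2 brain regions, thalamus and hippocampus (HPC), after cortical injury in mice (0.966%). They were chosen by their own transcript counts. A cell was a member with at least 3 unique molecular identifiers (UMIs, 1 for each captured RNA molecule) of Ccr2, Ly6c2 and Plac8 together and at least 3 of Lyz2, with none of the T cell genes Cd3d, Cd3e and Cd3g, the dendritic gene Flt3 or the B cell gene Cd79a, and with at most 1 UMI of the macrophage gene Mrc1. It also had fewer than 50 UMIs of the neutrophil genes S100a8 and S100a9, and fewer than 10 of the microglial genes Tmem119 and P2ry12, per 10000 UMIs. These genes chose the members, so their levels are given as a description with no test. By region, 107 members came from the HPC and 134 from the thalamus.

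The study profiled live CD45+ cells, that is leukocytes and microglia, from the injured hemisphere of C57B6/J mice by scRNA-seq (RNA sequencing of single cells in droplets). Age and time after injury were not given for these libraries in the labels. All mice carried a cortical ablation injury and none was uninjured. For each region, equal numbers of cells from 4 mice were joined and told apart by oligonucleotide tags, which gave 4 sets for the thalamus and 4 for the HPC, and the labels do not say that a set is a mouse. A region was 1 library. The effects of region and of library cannot be told apart, and p-values between regions measure only the spread between these sets, which may be technical.

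Monocytes are blood cells made in the bone marrow that enter inflamed tissue. Classical monocytes carry the surface protein Ly6C and the chemokine receptor Ccr2, which guides them out of the marrow and into injured brain. Nonclassical monocytes have little Ly6C and Ccr2, depend on the nuclear receptor Nr4a1 and patrol the vessel wall. In tissue, monocytes can take on macrophage features, or gain class II major histocompatibility complex (MHC-II) genes and resemble dendritic cells.

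Promoter sequences are shown for Cxcl9 and Plcb1, which were called between regions, and for Cxcl10, the neighbour of Cxcl9 that marked a few members. Each stretch runs 5′ to 3′ on the gene's strand up to the base before its annotated first exon, from RefSeq (GRCm38.p6). Capitals mark the matches, on either strand, to 3 short motifs: GGGANTTCC (kappaB-type), TTTC repeated after any pair of bases (interferon-stimulated response element) and TTCNNNGAA (gamma-activated sequence), where N is any base. The window of the other gene called between regions, Tnfaip2, overlapped an annotated exon and is not shown.

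Cxcl9, chr5:92328080-92328329, minus strand: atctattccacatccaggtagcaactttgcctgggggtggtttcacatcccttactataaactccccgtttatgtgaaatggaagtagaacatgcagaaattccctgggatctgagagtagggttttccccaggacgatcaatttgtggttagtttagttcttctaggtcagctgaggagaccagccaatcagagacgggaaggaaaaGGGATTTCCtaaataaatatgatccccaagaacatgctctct
Cxcl10, chr5:92348890-92349139, minus strand: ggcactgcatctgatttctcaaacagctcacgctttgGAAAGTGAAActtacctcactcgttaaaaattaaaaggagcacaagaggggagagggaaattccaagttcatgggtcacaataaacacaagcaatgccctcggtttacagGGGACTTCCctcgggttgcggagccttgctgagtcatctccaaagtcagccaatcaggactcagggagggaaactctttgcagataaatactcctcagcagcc
Plcb1, chr2:134785914-134786066, plus strand: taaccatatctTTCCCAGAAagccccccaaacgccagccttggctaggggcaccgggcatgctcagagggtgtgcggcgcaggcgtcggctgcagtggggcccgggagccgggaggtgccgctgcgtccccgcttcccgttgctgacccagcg

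The Cxcl9 and Cxcl10 stretches each held 1 kappaB-type match, which 1.42% of 27025 mouse promoter windows did. The Cxcl10 stretch also held 1 interferon-stimulated response element match (3.04% of windows), and the Plcb1 stretch 1 gamma-activated sequence match (7.18%). These shares are for windows of 250 bases, while the Plcb1 stretch was cut to 153 bases, so its share is not for a like length. The kappaB-type motif was added after the values were seen. A match is a description of letters and not a binding site.

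The members were deeper than the cells around them. Their median was 7086 UMIs and 2561 genes per cell, against 4500 UMIs and 2220 genes in the 24698 other kept cells. The choice set minimum raw UMIs, which deeper cells reach more easily, and its part in this difference was not tested. The sets contributed unevenly: HPC set 1 held 73 members, set 2 19, set 3 8 and set 4 7, and thalamus set 1 held 69, set 2 27, set 3 15 and set 4 23. Set 1 of each region together gave 142 members (58.9%). Tests on genes between regions used the 6 sets with at least 10 members, which left out HPC sets 3 and 4. No member shared its cell barcode with a member of another set (0 barcodes), although 49 barcodes were shared by kept cells of both regions. A doublet caller marked 0.0277% to 1.45% of the kept cells of a set, under 0.5% of the set with the most cells, which was taken as no working rate, and all cells stayed in. Of the members, 4 (1.66%) were in the top 5% of doublet scores of their set.

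To check the label, marker genes were compared with those of the other cells, in UMI counts scaled to a common total (CPM), summed over the cells of a class in each set, as a mean over the 6 sets. Lyz2 (lysozyme) reached 13750 CPM in members, 10593 in Mrc1-positive macrophages, 728 in microglia and 302 in T cells. Plac8 reached 2597 CPM in members and 1055 in Flt3-positive cells, and 257 or less in microglia, Mrc1-positive macrophages, neutrophils and T cells. Ccr2 was less particular, at 959 CPM in members, 633 in Mrc1-positive macrophages, 457 in Flt3-positive cells, 359 in T cells and 4.13 in microglia. Ly6c2 was 478 CPM in members, 195 in neutrophils, 146 in Flt3-positive cells and 2.28 in microglia. All 4 markers were used to choose the members, so these orders had to follow in part.

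Genes of monocytes that the choice did not use were also high, as the plot of marker levels by cell class shows. Ms4a4c was 512 CPM in members against 26.5 in all other kept cells, Fn1 (fibronectin) 790 against 42.1, F13a1 (coagulation factor XIII) 347 against 7.15 and Chil3 (the chitinase-like protein Ym1) 281 against 4.37. F13a1 was no higher in members than in Mrc1-positive macrophages, which had 421 CPM, and Chil3 was 424 CPM in neutrophils. Of the 20 classical monocyte genes, 16 were higher in members than in all other kept cells in every one of the 6 sets and 0 were lower. Over the 9655 genes with at least 10 CPM in either class, 13.4% were higher in every set and 32.5% lower. Of the 15 nonclassical monocyte genes, 9 were higher in every set and 2 were lower, Cx3cr1 (564 against 2103 CPM, a receptor that microglia carry at high level) among the latter. The choice of cells fixed much of this contrast, so it is given with no test.

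**Figure D1:**
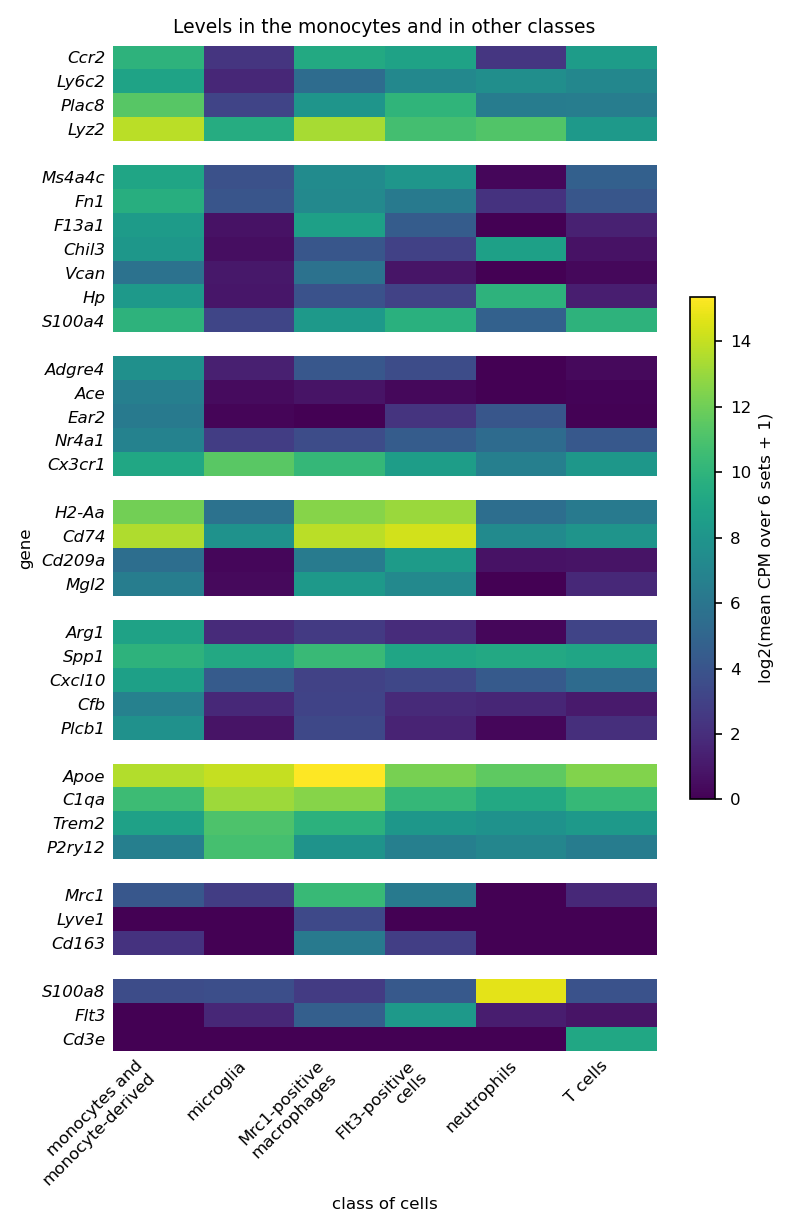
Heat map of marker genes (rows) in members and other cell classes (columns), coloured by log2(mean CPM + 1) over the 6 sets with at least 10 members, from dark (0) to yellow (high). Plac8, a gene of the choice (2597 CPM in members), stands above the other classes, but F13a1 is higher in Mrc1-positive macrophages, and Chil3 and Hp in neutrophils. The microglial gene P2ry12 (98.5 CPM in members, 1807 in microglia) lies at the level of T cells (87.2 CPM). Members and T cells were held under the same limit for P2ry12 and Tmem119.

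The defining genes of other cells were mostly lower in members than in the class they define. Microglial transcripts lay near the level in T cells, which should lack them: P2ry12 was 98.5 CPM in members and 87.2 in T cells, Tmem119 48.0 and 45.6, and Sparc 142 and 185, against 1807, 717 and 1925 in microglia. P2ry12 and Tmem119 were held under the same limit in members and in T cells, so their nearness was fixed in part. Sparc was limited in neither. At least 1 UMI of Tmem119 or P2ry12 was present in 98 members, 58 with 1 UMI and 40 with more, and 143 had none. The 12 microglial markers summed to 5925 CPM in members (range over sets 3852 to 9818), and 4308 in T cells. The macrophage markers Lyve1, Cd163 and Pf4 were 0, 3.68 and 10.8 CPM, with 437 CPM of Pf4 in Mrc1-positive macrophages. Zbtb46, a factor of conventional dendritic cells, was 3.12 CPM against 122 in Flt3-positive cells. Yet of 7 dendritic markers with at least 10 CPM, 4 were higher than in all other kept cells in every set and 2 lower. Over all such genes the shares were 13.4% and 32.5%. Against Flt3-positive cells 0 of 12 were higher in every set, beside 7.84% of genes. The 12 summed to 266 CPM in members and 1839 in Flt3-positive cells. S100a8 was 10.7 CPM against 27029 in neutrophils, and the T cell gene Trac was 4.83 against 434 in T cells. The label therefore held on its markers, within a choice that had used part of them.

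Ranked by ratio to all other kept cells, the 20 leading genes of at least 100 CPM in members were Plcb1, Adgre4, F10, Chil3, Gpr141, Plac8, F13a1, Gm21188, Klra2, Arg1, Cfb, Mgst1, Sirpb1c, Apoc2, Hp, Ifitm6, Tgfbi, Gda, Tmem51 and Clec12a. Plcb1, a phospholipase C that acts below G protein-coupled receptors, was 218 CPM against 1.99, a ratio of 110. Adgre4, an adhesion receptor of nonclassical monocytes, was 212 against 2.12, and F10, the clotting factor X, 195 against 2.12. Hp (haptoglobin) was 314 against 12.7, but 966 CPM in neutrophils. Against microglia the leading genes were Plac8, Gpr141, F13a1, Chil3, Ccr2, Hp, Napsa and Plbd1. Napsa was 398 CPM in members and 1.42 in microglia, and higher still in Flt3-positive cells (590 CPM). Against Flt3-positive cells they were Arg1, Plcb1, F10, Cxcl10, Hp, Clec4e, Chil3 and Cfb, with Clec4e (the receptor Mincle) at 144 against 2.90 CPM. Against neutrophils they were Ms4a4c, Arg1, F13a1, Adgre4, Gm15987, Ccr2, Plcb1 and Fn1. Against Mrc1-positive macrophages they were AA467197, Arg1, Cxcl10, F10, Acod1, Plcb1, Hp and Ifitm6. AA467197 was listed at 0 there and was 173 CPM in members, but also 353 in neutrophils.

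Wider programmes were counted in the same way, against the same 13.4% and 32.5% of genes. Of 24 interferon response genes, 16 were higher in members than in all other kept cells in every set and 1 was lower. Ifitm3, which restricts virus entry, was 2945 against 193 CPM. Fewer, 11 of the 24, were higher than in Flt3-positive cells in every set. The 24 summed to 9151 CPM in members, 5597 in neutrophils, 5459 in Flt3-positive cells and 4197 in Mrc1-positive macrophages. Of 12 MHC-II presentation genes, 8 were higher than in all other kept cells in every set and 3 lower. Yet none (0) was higher than in Flt3-positive cells in every set, as 7.84% of 8991 genes were. H2-Aa was 4281 CPM in members, 5970 in Mrc1-positive macrophages and 8324 in Flt3-positive cells. Of 20 genes of macrophage maturation, 2 were higher and 11 lower, among them C1qa (1484 against 7723 CPM), a complement gene. Lgals3 (galectin-3) was 1663 against 112 CPM, and the transcription factor Cebpb, needed for nonclassical monocytes, 1133 against 183. Of 16 glycolysis genes, 9 were higher and 3 lower, and Gapdh was 1142 against 444 CPM. The 16 summed to 4493 CPM in members and 4158 in neutrophils. Fth1 (ferritin heavy chain) was 11552 against 4486 CPM. The iron and heme genes, Fth1 among them, summed to 18250 CPM in members and to more, 24983 CPM, in neutrophils.

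The share of members among kept cells differed widely between sets of the same region. Members were 1.35% of kept cells in HPC set 1 (95% exact Clopper-Pearson interval 1.06 to 1.70), 0.526% in set 2 (0.317 to 0.820), 0.386% in set 3 (0.167 to 0.759) and 0.301% in set 4 (0.121 to 0.618). In the thalamus they were 2.10% in set 1 (1.63 to 2.65), 1.04% in set 2 (0.687 to 1.51), 0.694% in set 3 (0.389 to 1.14) and 0.659% in set 4 (0.418 to 0.987). The intervals cover counting error only. The regions overlapped, since HPC set 1 lay above 3 of the thalamus sets.

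**Figure D2:**
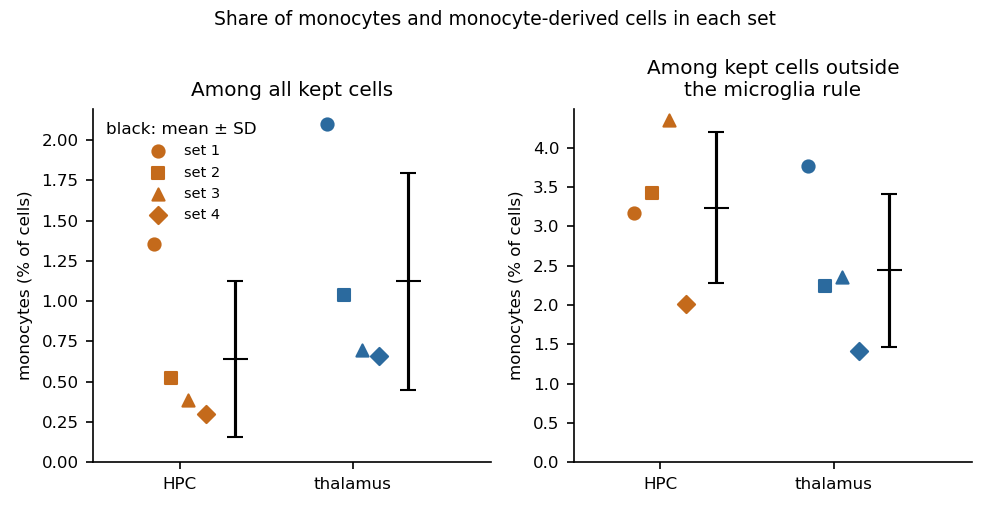
Members as a percentage of kept cells and of kept cells outside the microglia rule, by set (points, 1 shape per set number), with the mean ± SD over 4 sets in black. The HPC and thalamus sets overlap in both panels, from 0.301% to 2.10% of kept cells.

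The mean share was 1.12% ± 0.671 for thalamus and 0.642% ± 0.484 for HPC sets (SD, n = 4 each), which lay 0.481 percentage points apart (exact permutation over 70 assignments, two-sided p = 0.314, adjusted p = 0.419). The smallest p this design allows is 0.0286. Among kept cells outside the microglia rule the order turned: members were 2.44% ± 0.975 in the thalamus and 3.24% ± 0.959 in the HPC (exact permutation p = 0.286, adjusted p = 0.419). Neither difference was larger than the spread between sets, in a test that did not pair sets by number. Among all kept cells the thalamus share lay above the HPC share at every set number, and outside the microglia rule at set 1 only. Whether the numbers pair the sets was not settled. After every cell was thinned to 2000 UMIs, with 1683 shallower cells left out, 206 cells met the limits, 168 of them members of the unthinned set, and neither share passed the test.

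Members varied among themselves in Ly6c2 and in MHC-II genes, and each was used to divide them at its median. These ranges are not cell types. Ly6c2 (chr15:75108158-75111970, minus strand, GRCm38) had no UMI in 115 members, and its 90th percentile was 17.2 UMIs per 10000. The division fell at 1.07 per 10000, with 120 Ly6c2-upper and 121 Ly6c2-lower cells, and 27 cells lay within 1.5-fold of it. Of the upper cells, 44 had only 1 or 2 UMIs of Ly6c2, so the division mostly parts cells with and without a detected UMI. All Ly6c2-lower cells but 1 reached the limit of 3 UMIs through Ccr2 and Plac8 alone. Its near copy Ly6c1 shared 32.6% of the 50-base windows of the Ly6c2 exons, so reads of these windows cannot be told apart. Ly6c1 was listed at 0 CPM in members. Whether Ly6c2 lost counts through the shared windows was not tested. Ly6c2-upper cells were 43.1% ± 17.4 of thalamus members and 51.4% ± 6.93 of HPC members (SD, n = 4 and 4), given with no test since Ly6c2 chose the members.

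Between Ly6c2-upper and Ly6c2-lower cells, 5 of 16 classical monocyte genes and 3 of 21 interferon response genes rose, and 6 of 13 nonclassical, 5 of 20 macrophage maturation and 5 of 7 microglial genes fell. Over 5 sets with at least 5 cells in each group, edgeR's quasi-likelihood test with the set as a block called 33 genes higher in Ly6c2-upper cells and 39 lower. This is 2.61% of 2761 genes tested, 1.2% higher and 1.41% lower. Ly6c2, Ly6c1 and the genes that chose the members got no test. The groups were of similar depth, with median UMIs of 7490 and 6539. Since Ly6c2 had also helped to choose the members, the division was repeated in the 234 members with at least 3 UMIs of Ccr2 and Plac8 alone, for which Ly6c2 had not been needed. There 25 genes rose and 25 fell, 48 of them among the 72 called before, with 3 of 16 classical and 3 of 21 interferon response genes that rose and 3 of 13 nonclassical, 5 of 20 macrophage maturation and 1 of 6 microglial genes that fell. With no set block, 0 genes rose and 2 fell.

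Of 16 classical monocyte genes tested, 5 rose and 0 fell, with a median log2 fold change of 1.02 beside 0.0066 over all genes tested. Ms4a4c was 755, 736, 1125, 573 and 671 CPM in the upper group of HPC sets 1 and 2 and thalamus sets 1, 2 and 4, and 249, 319, 473, 438 and 251 CPM in the lower group of the same sets. Every upper value lay above every lower one (log2 fold change 1.19, SE 0.19, adjusted p = 0.00358). The other 4 were F13a1 (1.64), Clec4e (1.51), Hp (1.67) and Thbs1 (2.09), the last encoding thrombospondin-1 and higher in 4 of 5 sets. Thbs1 lost its call in 6 of 12 other settings, and its 36 UMIs in HPC set 2 lay in 2 cells. Neither Hp nor Thbs1 was called in the members chosen without Ly6c2.

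The remaining genes with the largest rise were Il1rn (2.03), the interleukin-1 receptor antagonist, Acod1 (1.84), which makes itaconate, the complement genes Cfb (1.63) and C3 (1.43), Clec4d (1.62), a partner of Mincle, and Ero1l (1.61), an oxidase of the endoplasmic reticulum. Over all members, 340 of 369 UMIs of Acod1 and 237 of 276 of Cfb lay in HPC set 1, so both rest mostly on that set. Il1rn was 166, 213, 243, 49.8 and 31.5 CPM in the upper groups and 41.5, 47.8, 54.0, 26.3 and 0 in the lower ones, higher in 5 of 5 sets (adjusted p = 0.00238). Of 21 interferon response genes, 3 rose and 0 fell (median 0.61): Ifitm3 by 0.82, Ifitm2 by 0.94 and Ifi209 by 1.12. Ifitm3 was 2962 to 4741 CPM in the upper groups and 1610 to 2819 in the lower ones, without overlap (adjusted p = 0.000311). Hif1a (1.07), the oxygen-sensing factor, and Pgam1 (0.94), of glycolysis, rose as the single members of their lists, and Sod2 (1.16) rose outside the lists.

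Of 13 nonclassical monocyte genes, 6 fell and 0 rose (median -1.75). They were Cd36 (-3.49), a scavenger receptor, Eno3 (-2.92), Pglyrp1 (-2.43), Ear2 (-2.42), Cd9 (-1.40), a tetraspanin, and Cx3cr1 (-0.98), the fractalkine receptor. Cd36 was 0, 0, 20.6, 12.5 and 10.5 CPM in the upper groups and 64.2, 191, 158, 17.5 and 105 in the lower ones, and the highest upper value lay above the lowest lower one. Cx3cr1, which microglia also carry at high level, was 223 to 499 CPM in the upper groups and 566 to 818 in the lower ones, with no overlap. In the members chosen without Ly6c2, 3 of 13 nonclassical genes fell, namely Cd9, Eno3 and Ear2.

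Of 20 genes of macrophage maturation, 5 fell and 1 rose (median -0.75). Cd81 (-2.82), Mertk (-2.54), a receptor for dying cells, C1qc (-1.43), Cd63 (-1.19) and Trem2 (-1.12), a lipid receptor, fell, and Ms4a6c rose by 0.55. Cd81 was 31.0, 16.4, 49.5, 49.8 and 52.4 CPM in the upper groups and 234, 383, 299, 70.0 and 650 in the lower ones, lower in 5 of 5 sets. The other genes with the largest fall were Nav3 (-3.97, lower in 3 of 5 sets), Plxdc2 (-3.61), Tanc2 (-2.98), Blnk (-2.78) and Sparc (-2.46). The MHC-II genes H2-Aa (-0.64) and H2-Eb1 (-0.78) also fell, as 2 of 9 in their list, and 0 of 9 were called in members chosen without Ly6c2.

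Microglial markers moved with this division. Of the 7 tested, 5 fell and 0 rose (median -1.50), among them Sparc, Fcrls (-2.32), Olfml3 (-1.50) and Cst3 (-0.82). The 12 markers summed to 3343 CPM in Ly6c2-upper and 6921 CPM in Ly6c2-lower cells. In the 112 members that had no UMI of Tmem119 or P2ry12 and entered this fit, 1 gene rose and 1 fell, and 0 of 56 of the called genes that could be tested there turned in sign. Without thalamus set 1 the counts were 6 and 7. The part of microglial RNA in these differences was not tested further.

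**Figure D3:**
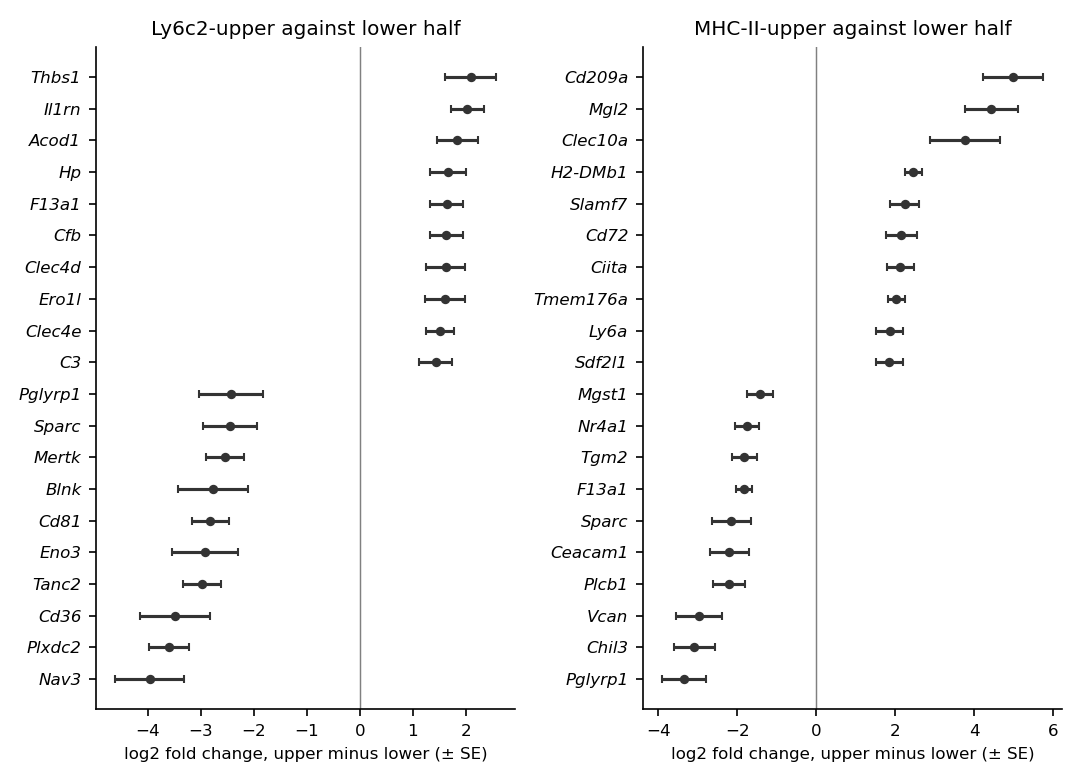
Log2 fold changes with standard errors of the named genes between Ly6c2-upper and Ly6c2-lower members and between MHC-II-upper and MHC-II-lower members, with the set as a block. Thbs1 (2.09) and Il1rn (2.03) lead the Ly6c2-upper side, and Cd209a (4.98) and Mgl2 (4.43) the MHC-II-upper side. Thbs1 lost its call in 6 of 12 other settings and Il1rn in 3 of 12.

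The sum of H2-Aa, H2-Ab1, H2-Eb1 and Cd74 spread over the members from none (25 members) to 1011 UMIs per 10000, with quartiles at 5.33, 104 and 391. Division at the median gave cells of similar depth (median UMIs 7447 and 6741), and 32 cells lay within 1.5-fold of it. It crossed the Ly6c2 division almost evenly: 59 to 61 members fell in each of the 4 combinations. MHC-II-upper cells were 45.1% ± 9.51 of thalamus members and 59.5% ± 9.71 of HPC members (SD, n = 4 and 4), a difference of -14.4 percentage points that did not pass the test (exact permutation p = 0.0857, adjusted p = 0.343). After thinning it was -0.137 percentage points.

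MHC-II-upper members carried more of the genes that monocyte-derived dendritic cells share, and MHC-II-lower members more of both monocyte programmes. In 6 sets, edgeR called 22 genes higher and 17 lower (1.61% of 2428 tested, 0.906% higher and 0.7% lower). Besides the 4 genes of the division, which got no test, 3 of 4 presentation genes rose: H2-DMb1 (2.45), H2-DMa (1.63) and Ciita (2.13), the master activator of MHC-II. H2-DMb1 was 537 to 916 CPM in the upper groups and 57.1 to 183 in the lower ones (SE 0.22, adjusted p = 5.77e-06). Of 4 genes of monocyte-derived dendritic cells, 3 rose and 0 fell: Cd209a (4.98), Mgl2 (4.43) and Clec10a (3.78), all lectins. Cd209a was 113, 11.6, 62.1, 64.2, 116 and 215 CPM in the upper groups of HPC sets 1 and 2 and thalamus sets 1 to 4, and 0 in the lower group of each except HPC set 1 (7.78 CPM). Its UMIs lay in few cells, since only 10 members had 2 or more, 9 of them MHC-II-upper.

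The other named genes that rose were Slamf7 (2.24), Cd72 (2.16), Tmem176a (2.02), Ly6a (1.86) and Sdf2l1 (1.85). Of 18 genes of macrophage maturation, 3 rose and 0 fell, namely Cd72, Ms4a7 (1.81) and Aif1 (0.85).

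Of 16 classical monocyte genes, 5 fell and 0 rose (median -0.74): Chil3 (-3.08), Vcan (-2.96), F13a1 (-1.84), Mgst1 (-1.43) and S100a4 (-0.62). F13a1 was 121, 139, 115, 202, 203 and 108 CPM in the upper groups and 494, 693, 339, 1019, 495 and 446 in the lower ones, and no values overlapped (adjusted p = 6.37e-05). Of 13 nonclassical genes, 3 fell and 0 rose (median -1.48): Pglyrp1 (-3.35), Nr4a1 (-1.75) and Itgal (-1.29), the latter an integrin chain. Nr4a1 was 29.0 to 53.9 CPM in the upper groups and 98.4 to 293 in the lower ones. Cebpb fell by 1.17 on the log2 scale, from 913 to 2308 CPM in the lower groups down to 312 to 865 in the upper ones. Plcb1 (-2.21), Ceacam1 (-2.20), Sparc (-2.15) and Tgm2 (-1.82), a transglutaminase, complete the named genes that fell. In members with no UMI of Tmem119 or P2ry12 the counts were 4 and 0.

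The other lists held few called genes in either division, apart from 1. In the Ly6c2 division, 5 of 21 genes of the lipid and phagocytic programme fell (Cd36, Cd9, Cd63, Trem2 and Ctsl, the last a cathepsin at -1.51), 4 of which were also counted above. Tgfbr1 fell by 1.05, as 1 of 13 growth factor receptors, Hfe fell by 1.43, as 1 of 5 iron genes, and Clec4d and Clec4e were the 2 of 11 pattern recognition receptors that rose. In the MHC-II division, Cxcl16 (1.52) rose as 1 of 12 cytokine genes, and Emilin2 (-1.01) and Itgal were the 2 of 14 genes of chemokine receptors and adhesion that fell. Nr4a1 and Cebpb were the 2 of 16 transcription factors that fell, and Nr4a1 the 1 of 14 immediate early genes. No gene was called in either division among Fc receptors (0 of 5) or cell cycle genes (0 of 2).

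Some members stood out by single genes, which were chosen after the values were seen and are described with no test. Arg1 (chr10:24915221-24927484, minus strand, GRCm38), the arginase of repair-type macrophages, had 1126 of its 1214 UMIs in thalamus set 1. It was 2329 CPM there, 411 in thalamus set 2 and 12.9 in HPC set 1, and 0 in the other 5 sets. In thalamus set 1, 30 of 69 members had a UMI and the cell with the most held 13.4% of the set's UMIs, so the level did not rest on 1 cell. Counting members with 2 or more UMIs gave 35 cells, 26 in thalamus set 1, 6 in thalamus set 2 and 3 in HPC set 1. Of these, 19 were Ly6c2-upper and 11 MHC-II-upper.

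The 35 Arg1 cells were also high in Spp1 (osteopontin), at 7164 CPM against 499 in the other 206 members, and in Srgn (9316 against 1151), Fn1 (2649 against 522), Tgm2 (1407 against 83.0) and the heme oxygenase Hmox1 (566 against 77.0). Fn1 had 2 or more UMIs in 32 of the 35 and Spp1 in 16. Since most of these cells came from 1 set, a feature of that set and a feature of the cells cannot be told apart. Spp1 itself was 4346 CPM in thalamus set 1 and at most 592 in the others, and 290 of its 367 UMIs in HPC set 1 lay in 1 cell.

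Members with 2 or more UMIs of Ace or Adgre4, genes of nonclassical monocytes, numbered 61 and were spread over 7 of the 8 sets, with 23, 6, 5 and 0 in HPC sets 1 to 4 and 11, 5, 6 and 5 in thalamus sets 1 to 4. They held 241 CPM of Ear2 against 5.88 in the other 180 members, 213 of Treml4 against 8.81, 343 of Nr4a1 against 25.7, 216 of Spn (CD43) against 17.6, 743 of Klf2 against 106 and 546 of Itgal against 105. Of the 61, 19 were Ly6c2-upper and 20 MHC-II-upper. They shared 2 cells with the Arg1 cells, the overlap being 3.28% of the 61 and 5.71% of the 35.

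Cxcl10, a chemokine induced by interferons, had 2 or more UMIs in 27 members, 12 in thalamus set 1, 12 in HPC set 1, 2 in HPC set 2 and 1 in HPC set 4. Its level was 502, 751, 0 and 477 CPM in HPC sets 1 to 4 and 1276, 0, 0 and 6.99 in thalamus sets 1 to 4. These levels rested on few cells, as 285 of the 617 UMIs in thalamus set 1 and 150 of the 311 in HPC set 1 lay in 1 cell. The 27 cells were high in interferon response genes: Isg15 was 1628 CPM against 299 in the other 214 members, Rsad2 1482 against 33.2, Ifit3 638 against 64.4, Ifit2 561 against 45.6 and Gbp5 306 against 15.0. They shared 8 cells with the Arg1 cells and 5 with the Ace or Adgre4 cells, and 133 members were in none of the 3 groups.

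**Figure D4:**
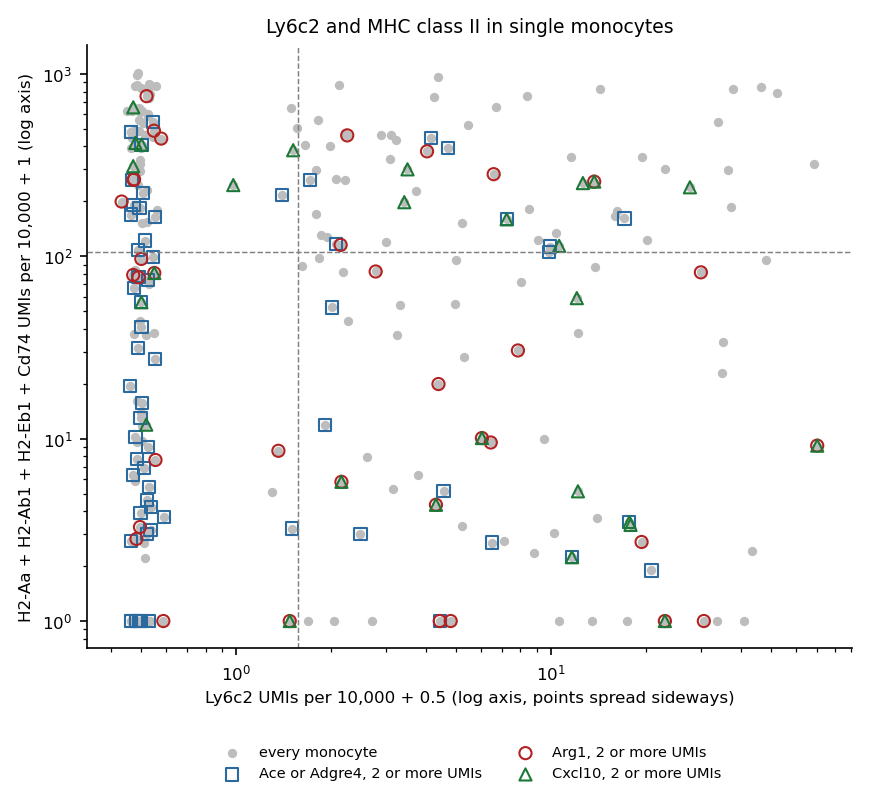
Each point is 1 member, at its UMIs per 10000 of Ly6c2 and of the 4 MHC-II genes, on log axes with 0.5 and 1 added and marked by the presence of 2 or more UMIs of Arg1, of Ace or Adgre4, or of Cxcl10. The lines are the medians (1.07 and 104 per 10000), and the 4 combinations hold 59 to 61 cells each.

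Smaller counts filled in the picture. Chil3 had 2 or more UMIs in 49 members, 36 of them Ly6c2-upper and 7 MHC-II-upper. Cfb had 2 or more in 33 members, 26 of them in HPC set 1. Mki67, a gene of dividing cells, had 2 or more in 11. It was 32.6 CPM in members and 37.1 in T cells.

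Between members of the thalamus and the HPC, edgeR's test on the 6 sets called 1 gene higher in the thalamus and 2 lower, 0.0843% of 3557 genes tested (0.0281% higher, 0.0562% lower). At an unadjusted p under 0.05 there were 59 and 95 genes. DESeq2 called 1 and 4. The count moved with the genes and sets that entered: 5 and 26 with no filter on low counts, 4 and 35 in sets of at least 20 members, 1 and 18 without HPC set 2, and 0 and 0 with all 8 sets.

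Plcb1 (chr2:134786067-135475258, plus strand), which also fell in MHC-II-upper cells, was the gene called higher in the thalamus. It was 302, 252, 207 and 398 CPM in thalamus sets 1 to 4, and 62.9, 88.8, 243 and 139 CPM in HPC sets 1 to 4. The tested HPC sets, 1 and 2, lay below every thalamus set, while HPC set 3, with 8 members, overlapped them. The log2 fold change was 2.01 (SE 0.33, adjusted p = 0.0335). In HPC set 2, 8 of the 11 UMIs lay in 1 cell, and in thalamus set 4, 29 of 57. Over all members, 70 of 241 had a UMI. Plcb1 passed the test in 8 of 17 other settings and kept its sign in all of them. Whether intron reads were counted is not given in the sources used here, which bears on a gene of this length.

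Tnfaip2 (chr12:111442469-111455018, plus strand), a gene induced by tumour necrosis factor, was 234, 283, 74.8 and 159 CPM in HPC sets 1 to 4 and 47.6, 66.8, 34.5 and 34.9 in the thalamus sets. All 4 HPC sets lay above all 4 thalamus sets, HPC sets 3 and 4 outside the fit included. The levels of HPC sets 3 and 4 rested on 4 and 8 UMIs. In HPC set 3, 3 UMIs would be 56.1 CPM, below thalamus set 2. The log2 fold change was -2.41 (SE 0.30, adjusted p = 0.00444), and it passed in all 16 other settings in which it was tested. Tnfaip2 was not among the genes tested with all 8 sets. In HPC set 1, 47 of 73 members had a UMI and no cell held more than 7.59% of them, against 15 of 69 members in thalamus set 1. In HPC set 2, 29 of 35 UMIs lay in 1 cell.

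Cxcl9 (chr5:92321347-92328079, minus strand), a chemokine induced by interferon gamma that draws T cells, was 87.1, 315, 0 and 895 CPM in HPC sets 1 to 4 and 6.21, 0, 0 and 0 in the thalamus sets. HPC set 3 did not stand above the thalamus. The log2 fold change of -5.59 (SE 0.80, adjusted p = 0.0335) depends on the low thalamus counts and is no bound. Its 141 UMIs lay in 11 members: 33 of 54 in HPC set 1, 31 of 39 in HPC set 2 and all 45 in HPC set 4 were in a single cell each. It passed in 10 of 15 other settings.

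**Figure D5:**
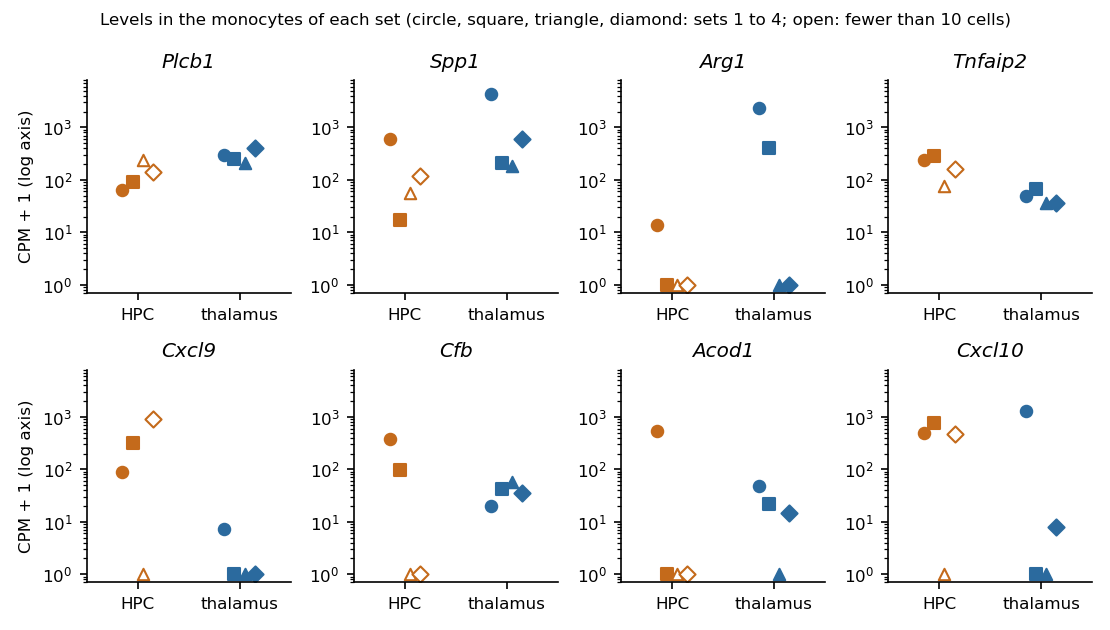
CPM + 1 (log axis) in members of each set, for Plcb1, Tnfaip2 and Cxcl9, called between regions, and 5 genes that were not called, with open symbols for sets of fewer than 10 members. Tnfaip2 is higher in all 4 HPC sets (74.8 to 283 CPM) than in the thalamus sets (34.5 to 66.8), while Plcb1 and Cxcl9 overlap once HPC sets 3 and 4, outside the test, are drawn. The Tnfaip2 level of HPC set 3 rests on 4 UMIs.

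The genes with the next lowest p did not pass. Calhm6 was 153, 121, 18.7 and 59.7 CPM in HPC sets 1 to 4 and 23.0 to 51.4 in the thalamus (log2 fold change -1.80, adjusted p = 0.0628 by edgeR). Cfb was 382, 96.9, 0 and 0 CPM against 18.6 to 57.5 (-3.06, adjusted p = 0.0828), and Aoah, which breaks down bacterial lipopolysaccharide, 350, 194, 18.7 and 199 against 23.0 to 112 (-1.90, adjusted p = 0.0828). On the other side, Tmem37 (1.63), Lgmn (0.79), Ppdpf (1.15) and Ctsl (0.99) had adjusted p-values of 0.322 to 0.811. Lgmn, a lysosomal protease, was 402, 323, 523 and 338 CPM in the HPC and 693, 519, 609 and 783 in the thalamus, where 1 pair of sets overlapped. Of all genes tested, 467 (13.1%) did not overlap between the regions in the 6 sets.

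Listed by function, 0 of 9 MHC-II presentation genes had a positive log2 fold change (median -0.18, thalamus against HPC) and 0 were called. The lipid and phagocytic programme had 16 of 20 positive (median 0.36) with 0 called, and genes of dissociation and immediate early response 13 of 16 (median 0.31) with 0 called. The median over all genes tested was 0.0203. Of 14 genes of inflammatory cytokines and regulators, 5 were positive (median -0.68) and 0 called. Classical monocyte genes (8 of 16 positive), nonclassical genes (8 of 13), macrophage maturation (10 of 20) and transcription factors (14 of 18) had no called gene (0). Of the 21 interferon response genes, 14 were positive and Cxcl9 was the 1 called. The 8 microglial markers tested had 7 positive (median 0.44, 0 called), and summed to 6497 ± 2610 CPM in thalamus sets and 5359 ± 1881 in HPC sets (SD, n = 4 and 4).

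Several genes were high in 1 set alone, found after the values were seen and with no test. In HPC set 1, Acod1 was 548 CPM (30 of 73 members with a UMI) against at most 47.6 in another set, and Ly6i, a relative of Ly6c2, 573 CPM (44 of 73) against at most 88.8. Acod1 and Ly6i were spread over cells, with 10.9% and 8.73% of their UMIs in the leading cell. In thalamus set 1, Rsad2 was 654 CPM (19 of 69) with 44.3% of its UMIs in 1 cell. All 116 UMIs of the chemokine Ccl12 in HPC set 2 (937 CPM) came from 1 cell. Beside these shares, in T cells (median 3674 UMIs per cell, against 7086 in members) 0.613% of cells had a UMI of Acod1 and 5.32% one of Rsad2.

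Region differences were last set beside those of microglia in the same 6 sets. The test of the difference between both contrasts called 4 genes, all in the direction of a larger excess of the thalamus over the HPC in microglia than in members (0.112% of 3557). None of them (0) was called without the top 5% of doublet scores, in members with no UMI of Tmem119 and P2ry12, or without HPC set 1. Ccl3, a chemokine, was 253, 126, 158 and 184 CPM in microglia of thalamus sets 1 to 4 and 60.5 and 33.8 in HPC sets 1 and 2, but 25.7 to 88.9 against 118 and 56.5 in members (log2 difference -2.53, SE 0.33, adjusted p = 0.00167). The levels of Ccl3 in members rested on few cells, as 38 of 73 UMIs in HPC set 1, 4 of 7 in HPC set 2 and 18 of 43 in thalamus set 1 lay in 1 cell. Fn1 averaged 19.9 against 6.27 CPM in microglia and 795 against 780 in members (-1.61, adjusted p = 0.0269). Xylt1, which starts the sugar chains of proteoglycans, averaged 52.4 against 18.5 CPM in microglia and 206 against 219 in members (-1.68). Capg, which caps actin filaments, averaged 45.9 against 15.0 CPM and 323 against 316 (-1.55). Fn1, Xylt1 and Capg were thus higher in members than in microglia of either region. No gene (0) was called in the other direction, where DESeq2 also called 0 and 63 genes had an unadjusted p under 0.05.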

How the data were processed

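CD45+ cells of 4 tagged sets per region were analysed. The values in the deposited matrices were raw UMI counts per gene and cell, which the authors made with Cell Ranger 7.1.0 (per the file headers, while the study's methods name an older version) on the mm10 build. Whether intron reads were counted was not given in the sources used here. Rows of multiplexing oligos were left out. Cells with 200 to 7500 genes and at most 2% mitochondrial counts were kept, 24939 of 29190. Members were chosen by the UMI limits given above. Members and gene lists were chosen with earlier results of these data known, and 1 gene of the lists was not analysed here and 1 is not reported by itself.

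Comparison classes among kept cells were microglia (14814 cells, at least 10 UMIs of Tmem119 and P2ry12 per 10000), Mrc1-positive macrophages (127, at least 3 Mrc1 UMIs), Flt3-positive cells (253), neutrophils (641) and T cells (3102, a class added after the values were seen). The classes other than microglia had, like members, fewer than 10 UMIs of Tmem119 and P2ry12 per 10000. Counts were summed over members per set (at least 10 members) or per set and group of a division (at least 5), 50290 to 619888 UMIs for all members of a set, and tested with edgeR 4.0.16 in R 4.3.3 (TMM, filterByExpr, quasi-likelihood F-test). Adjusted p-values are Benjamini-Hochberg values over every tested gene, and calls were made under 0.05. Genes used to choose or divide the members were left out of the tests. Shares were tested by two-sided exact permutation over 70 assignments, adjusted over 4 shares, of which that of Ly6c2-upper cells is given with no test. The steps were tested on simulated data. Doublet scores came from Scrublet (scanpy 1.11.5).

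Genes were named by rule: the 12 largest called changes per direction between regions (at least 50 CPM, no overlap, filled up to 5 by lowest p), the 10 largest per direction in each division, the 5 lowest p of the microglia contrast, the 20 largest ratios to other kept cells and 8 to each class (at least 100 CPM), and from the lists called genes and the 4 with the highest CPM as candidates. Alternatives were DESeq2 1.42.0, no filter on low counts, a 5% mitochondrial limit, at least 5 monocyte gene UMIs, thinning to 2000 UMIs, no top 5% of doublet scores, equal numbers of members (15 per set), at least 20 members per set, no set block in the divisions, each set left out and the set number as a block. Others were added after seeing the data: members with no UMI of Tmem119 and P2ry12, members with at least 3 UMIs of Ccr2 and Plac8, and all 8 sets.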

Additional observations from a re-analysis of the deposited data

Results flagged for a closer look

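Of 28 groups of 4 sets checked for a single set far from the others, 3 held one, and chance alone marks about 1 in 20 groups. Ppdpf was 150 CPM in members of HPC set 3 and 39.8 to 56.5 in the other HPC sets. MHC-II-upper cells were 59.3% of members in thalamus set 2 and 39.1% to 42.0% in the other thalamus sets. Cxcl9 was 6.21 CPM in thalamus set 1, from 3 UMIs in 1 cell, and 0 in the other thalamus sets.

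The difference between regions differed between members and microglia in 4 genes by the test of the interaction (edgeR, log2 scale): Ccl3 (-2.53), Xylt1 (-1.68), Fn1 (-1.61) and Capg (-1.55). In each, the thalamus lay above the HPC in microglia, and in members the means were 57.6 and 87.1 CPM for Ccl3, 206 and 219 for Xylt1, 795 and 780 for Fn1, and 323 and 316 for Capg. The cause was not tested.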

How the results depend on the processing

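Counts of called genes are given as higher and lower. Between regions (1 and 2) they were 1 and 4 with DESeq2, 5 and 26 with no filter on low counts, 0 and 2 without the top 5% of doublet scores, 0 and 3 in members with no UMI of Tmem119 and P2ry12, 1 and 1 with the same number of members per set, 4 and 35 with at least 20 members per set, and 0 and 0 with all 8 sets. Leaving out each set in turn gave 0 to 1 and 1 to 18, with 18 lower without HPC set 2. Whether the set numbers pair the sets was not settled. Correlations of equally numbered sets were 0.2268, -0.0451, 0.1124 and -0.1195 over 2443 genes, and only set 1 correlated best with its own number. Sets 3 and 4 of the HPC held few members for such a check. With the set number as a replicate block the counts were 23 and 24, and 4 and 3 over all 8 sets. In the Ly6c2 division (33 and 39) they were 19 and 31 with DESeq2, 76 and 99 with no filter, 17 and 13 with at least 5 UMIs of Ccr2, Ly6c2 and Plac8, 25 and 25 in members with at least 3 UMIs of Ccr2 and Plac8, 1 and 1 in members with no UMI of Tmem119 and P2ry12, and 0 and 2 with no set block. Leave-one-out gave 6 to 44 and 7 to 60, the lowest without thalamus set 1. In the MHC-II division (22 and 17) they were 51 and 82 with no filter and 4 and 0 in members with no UMI of Tmem119 and P2ry12. Leave-one-out gave 11 to 28 and 7 to 19, with 11 and 10 without thalamus set 1 and 13 and 7 without thalamus set 4. For region differences against microglia (0 and 4) they were 0 and 9 with DESeq2, 0 and 36 with no filter, and 0 and 0 without the top 5% of doublet scores and in members with no UMI of Tmem119 and P2ry12. Leave-one-out gave 0 to 1 and 1 to 14. The cause of these moves was not tested, beyond that fewer cells or sets entered several of them. No share passed its test in any alternative. Of the values of single named genes under other settings, 515 kept their side of the threshold, 128 lost the call, 17 gained it and 0 turned in sign. HPC sets 3 and 4, with 8 and 7 members, limit what the HPC can show.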

Other observations

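Near the limits of the choice, 15 members had exactly 3 UMIs of Ccr2, Ly6c2 and Plac8 and 26 cells fell outside with 2. Their Fn1 levels were 105 and 591 CPM and their Ms4a4c levels 199 and 54.9. Of cells that met all other limits, 23 were outside for 1 UMI of Flt3, with 533 CPM of Cd209a against 45.6 in members. For Mrc1, 22 members had 1 UMI and 20 cells fell outside with 2. For Lyz2, 7 members had 3 UMIs and 11 cells fell outside with 2. For Tmem119 and P2ry12, 6 members had 8 to 10 per 10000 and 2 cells fell outside with 10 to 12.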
